A study of Homo sapiens with 6 samples.

Results

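The 5 genes PHLDA3, DTX4, LIMK2, ANKRA2 and BLNK stood higher when p53 was switched on and ended at or under the control level after recovery, and they are described here out of 18701 genes with a value on the array. They were picked on these same arrays, for a rise in p53 on and for a level after recovery at or below control, so both differences, and the fall between them, are given as a description. Counts of calls for these differences are printed beside those of all genes and support nothing. All 5 were among the 14026 genes that passed the filter on dim signals.

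The cells were HT29-tsp53, a human colorectal adenocarcinoma line that expresses a temperature-sensitive mouse p53 transgene, V135A, and every group carried this transgene. RNA from 6 dishes was measured on Affymetrix Gene 1.0 ST arrays, 1 array for each of 3 conditions in each of 2 experiments numbered in the labels. Control cells stayed at the restrictive temperature (p53 off), the p53 on group spent 16 h at 32 °C, and the recovery group had those 16 h and then 6 h back at the restrictive temperature (p53 on then off). That temperature is written as 38 °C in some labels and as 37 °C in others, and one label of the recovery group gives 32 °C for the last 6 h. The mouse p53 transgene itself was not analysed here. The labels name no clone and no line without the transgene, so p53 activity and the change of temperature cannot be told apart.

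p53 is a transcription factor that binds DNA as a tetramer and raises the transcription of genes for arrest, death, repair and its own restraint. When it is inactivated, a transcript returns toward its basal level at a speed set by its own decay, and the series asks what part mRNA decay plays. The 5 genes have different roles. PHLDA3 is a small pleckstrin homology domain protein that competes with the kinase AKT for membrane lipids and so restrains it, and it is a known p53 target. DTX4 is a ubiquitin ligase of the Deltex family, known from Notch signalling. LIMK2 is a kinase that phosphorylates cofilin and so slows the turnover of actin filaments. ANKRA2 is an ankyrin repeat protein that binds class IIa histone deacetylases and the transcription factor RFX7. BLNK is the adaptor that links the kinase SYK to its downstream enzymes in B cells.

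The cell type given in the labels was checked on its markers. Of 12 intestinal epithelial markers, 11 had a mean of at least log2 3.6, the level below which a signal is called dim here. Among them were KRT18 at 12.5, KRT8 at 12.2 and EPCAM at 9.33, and the median of the 12 was 9.16. The lowest were CDX2 at 4.35, GPA33 at 3.65 and the intestinal cadherin gene CDH17 at 2.53. CDX2, GPA33 and CDH17 thus lay in the range of the B cell markers. Of 8 measured B cell markers, 4 reached log2 3.6 and the highest, CD79A, averaged 4.36, with the leukocyte gene PTPRC at 1.70 and MS4A1 at 2.48. Summed over the 8 on the linear scale, the B cell markers stood at 98.8 and 86.8 signal units in control, then 94.9 and 118 in p53 on, then 97.9 and 114 in recovery. In bulk RNA, fewer cells that express a gene and less RNA per cell cannot be told apart.

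Promoter sequences were available for 4 of the 5 genes, in 6 windows of 300 bases (RefSeq, GRCh38.p14). The p53 half-site consensus, a decamer that reads the same on both strands, was found in 1 of the 6 windows and in 6.63% of all 35116 windows. That window belonged to BLNK and held 2 non-overlapping half-sites, and 2 or more were found in 0.308% of all windows. The 2 in BLNK lay apart, at bases 184 to 175 and 11 to 2 before the start, and were not tested as 1 site. The 250 bases before the start of BLNK (chr10:96271570-96271819, minus strand) are shown because of these matches, in capitals, which begin 184 and 11 bases before the start. The same stretch of ANKRA2 (chr5:73565640-73565889, minus strand), the gene with the largest rise, is shown beside it and has no match. A match of letters is not a bound site, and p53 sites also lie outside such windows.
BLNK: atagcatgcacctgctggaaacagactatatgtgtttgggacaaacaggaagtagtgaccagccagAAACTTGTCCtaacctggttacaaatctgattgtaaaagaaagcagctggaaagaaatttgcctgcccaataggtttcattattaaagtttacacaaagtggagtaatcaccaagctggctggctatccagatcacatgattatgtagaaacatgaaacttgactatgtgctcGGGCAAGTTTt
ANKRA2: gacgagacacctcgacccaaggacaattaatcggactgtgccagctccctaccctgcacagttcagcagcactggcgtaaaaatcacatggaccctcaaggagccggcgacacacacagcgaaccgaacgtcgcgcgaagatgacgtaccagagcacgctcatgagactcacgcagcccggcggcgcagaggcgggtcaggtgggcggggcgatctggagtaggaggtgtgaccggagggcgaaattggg

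In control, PHLDA3 read 4.92 in experiment 1 and 5.51 in experiment 2 on the log2 scale. In p53 on it read 6.79 and 6.98, then 4.40 and 4.49 after recovery, in the same order of experiments. Both p53 on arrays lay above all others, and both recovery arrays lay below both control arrays. In p53 on it stood 3.18-fold higher than in control (1.67 ± 0.25 log2 units, standard error from limma with n = 2 arrays per group). After recovery it stood 5.40-fold lower than in p53 on (-2.43 ± 0.25) and at -0.77 ± 0.25 relative to control, with -0.52 in experiment 1 and -1.01 in experiment 2. This was the widest gap below control among the 5 genes. It rested on 1 of the 5 PHLDA3 probe sets, which supplied the median, and so the gene's value, on all 6 arrays. The other 4 probe sets averaged between 0.13 and 0.97 above control after recovery, although all 5 were higher in p53 on and lower after recovery than in p53 on in both experiments. Against control after recovery, 1 of the 5 was lower in both experiments, 2 were higher in both and 2 differed in sign. The 0.97 came from the second by identifier, at -0.29 in experiment 1 and 2.22 in experiment 2, where its control array was dim at 1.75. With the mean of the probe sets in place of the median, PHLDA3 lay 0.17 above control after recovery, at -0.07 in experiment 1 and 0.41 in experiment 2.

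DTX4 was the brightest of the 5 genes, with 6.86 and 7.0 in control, then 8.24 and 8.32 in p53 on, then 6.58 and 6.85 in recovery. The groups did not overlap, but the higher recovery array and the lower control array, which come from different experiments, were nearly equal. DTX4 stood 2.55-fold higher in p53 on than in control (1.35 ± 0.20) and 2.95-fold lower after recovery than in p53 on (-1.56 ± 0.20). Its difference from control after recovery was -0.21 ± 0.20, or -0.28 and -0.15 within the experiments. All 10 probe sets were higher in p53 on in both experiments, by 1.03 to 1.61 on average. After recovery 5 of the 10 were below control in both experiments, 2 were above it in both, and 3 differed in sign.

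LIMK2 stood at 5.77 and 5.69 in control, then 6.91 and 6.89 in p53 on, then 5.71 and 5.41 in recovery. It had the smallest rise, 2.25-fold (1.17 ± 0.20), and stood 2.53-fold lower after recovery than in p53 on (-1.34 ± 0.20). After recovery the difference from control was -0.17 ± 0.20, with -0.07 and -0.27 within the experiments, and the recovery and control arrays overlapped. Of 18 probe sets, 17 were higher in p53 on in both experiments and 16 were lower after recovery than in p53 on in both. On average 2 probe sets were higher after recovery than in p53 on. The second by identifier was 0.63 higher in experiment 1 and at -0.51 in experiment 2, and it was the 1 probe set lower in p53 on than in control in both experiments, at -0.40 and -0.13. The first by identifier was higher after recovery than in p53 on in both. It read 7.98 and 5.65 in control, then 8.07 and 6.26 in p53 on, then 9.30 and 7.20 in recovery, which put it 1.32 and 1.55 above control while the gene as a whole lay below. The 4 probe sets that the annotation assigns to both LIMK2 and PPP1R14B were left out of the gene value. Their differences between p53 on and control lay between -0.70 and 0.26 in single experiments.

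ANKRA2 had the largest rise of the 5 genes, with 3.47 and 2.52 in control, then 6.57 and 5.73 in p53 on, then 2.96 and 1.93 in recovery. All 4 arrays outside p53 on were dim, below log2 3.6, and the recovery and control arrays overlapped. As measured, ANKRA2 stood 3.15 ± 0.47 log2 units higher in p53 on than in control and at -3.70 ± 0.47 after recovery relative to p53 on. With dim levels raised to 3.6, each of these differences was at least 5.86-fold. The measured difference from control after recovery, -0.55 ± 0.47 (-0.51 and -0.59 within the experiments), lay wholly in the dim range and was 0 once dim levels were raised. Of 10 probe sets, 5 were dim on average, and with the median taken over the other 5 the gene lay 0.22 above control after recovery. The rise itself was seen in all 10 probe sets in both experiments.

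BLNK stood at 3.87 and 3.44 in control, then 6.09 and 5.31 in p53 on, then 3.48 and 3.27 in recovery. Only 1 array outside p53 on, control in experiment 1, was above the dim level, and the recovery and control arrays overlapped. BLNK stood 4.12-fold higher in p53 on than in control (2.04 ± 0.31), or 3.89-fold with dim levels raised. After recovery it stood at -2.32 ± 0.31 relative to p53 on and at -0.28 ± 0.31 relative to control, with -0.40 and -0.17 within the experiments. Of 17 probe sets, 15 were higher in p53 on in both experiments, and after recovery 7 were below control in both, 4 above it in both and 6 of differing sign. The B cell markers stayed between 86.8 and 118 summed signal units over the 6 arrays. Of the 8, CD79A, CD79B, PAX5 and CD37 averaged at least log2 3.6 and the other 4, PTPRC and MS4A1 among them, were dim. Their part in the BLNK values was not tested.

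**Figure D1:**
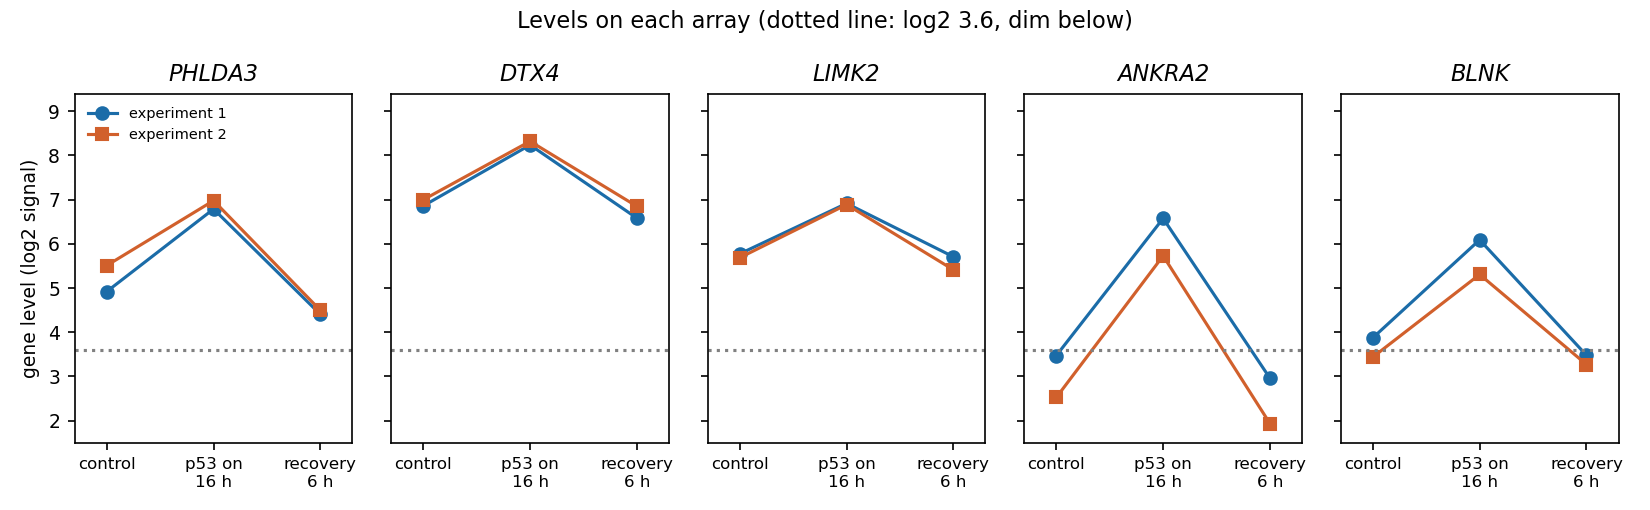
Log2 signal of each of the 5 genes on the 6 arrays, in control, p53 on and recovery, with a line for each experiment (circles for experiment 1, squares for experiment 2) and a dotted line at log2 3.6. Every line peaks in p53 on and ends under its own starting point, ANKRA2 and BLNK at levels below the dotted line.

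Over the 5 genes, the median difference was 1.67 between p53 on and control, -2.32 between recovery and p53 on and -0.28 between recovery and control, beside medians of 0.02, 0.02 and 0.03 over all 14026 genes tested. These comparisons chose the genes, so the following counts describe the choice and test nothing. In limma, 5 of 5 were called higher in p53 on at an adjusted p under 0.05, where 0.898% of all genes were. For recovery against p53 on, 4 of 5 were called lower, where 0.285% of all genes were, and LIMK2 was added when the fit took the experiment as a replicate block, where 3.39% were. With the block 5 of 5 were again called higher in p53 on, where 5.18% were. The arrays did not overlap between p53 on and control for 5 of 5 genes, as for 22.6% of all genes in that direction, nor between recovery and p53 on for 5 of 5, as for 18.3%. Between recovery and control they did not overlap for 2 of 5, PHLDA3 and DTX4, as for 14.5% of all genes lying lower and 20.4% lying higher.

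The standard errors above come from the fit without the experiment. With the experiment as a block, the standard error of the gap below control was 0.19 for PHLDA3, 0.17 for DTX4, 0.17 for LIMK2, 0.17 for ANKRA2 and 0.19 for BLNK. The gaps were part of the choice of genes, so setting them beside these errors describes them and tests nothing. The gaps of PHLDA3 at -0.77, DTX4 at -0.21 and ANKRA2 at -0.55 were wider than their errors in both fits. That of ANKRA2 lay between dim levels. The BLNK gap of -0.28, with dim levels in recovery, was wider than its error only with the block. The LIMK2 gap of -0.17 was wider in neither fit. No gene of the 14026 was called lower after recovery than in control by limma without the block, where 342 had an unadjusted p under 0.05, and 55 were called lower with the block (0.392%), 0 of them among the 5. Counted over the 60 probe sets of the 5 genes, 57 were higher in p53 on than in control in both experiments and 56 were lower after recovery than in p53 on in both. Against control after recovery, 23 were lower in both experiments, 13 were higher in both and 24 differed in sign. The rise and the level after recovery were both part of the choice of genes, so these tallies describe it and are not set against each other. The size also turned on single arrays. ANKRA2 lay at -0.08 without control array 1 and at -0.04 without recovery array 2, but at -1.02 without control array 2 and -1.06 without recovery array 1. BLNK lay at -0.06 without control array 1 and -0.50 without control array 2. DTX4 lay at -0.08 without recovery array 1 and -0.35 without recovery array 2, and LIMK2 at -0.32 and -0.02 in the same order. PHLDA3 lay at -1.06 without control array 1 and -0.47 without control array 2. These fits leave the experiments unbalanced, and in none of them did a gene cross to the other side of control. The genes were chosen for lying at or under control on these same arrays, so this too is a description. Under other settings PHLDA3 lay 0.17 above control (mean of probe sets) and ANKRA2 0.22 above it (dim probe sets left out).

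**Figure D2:**
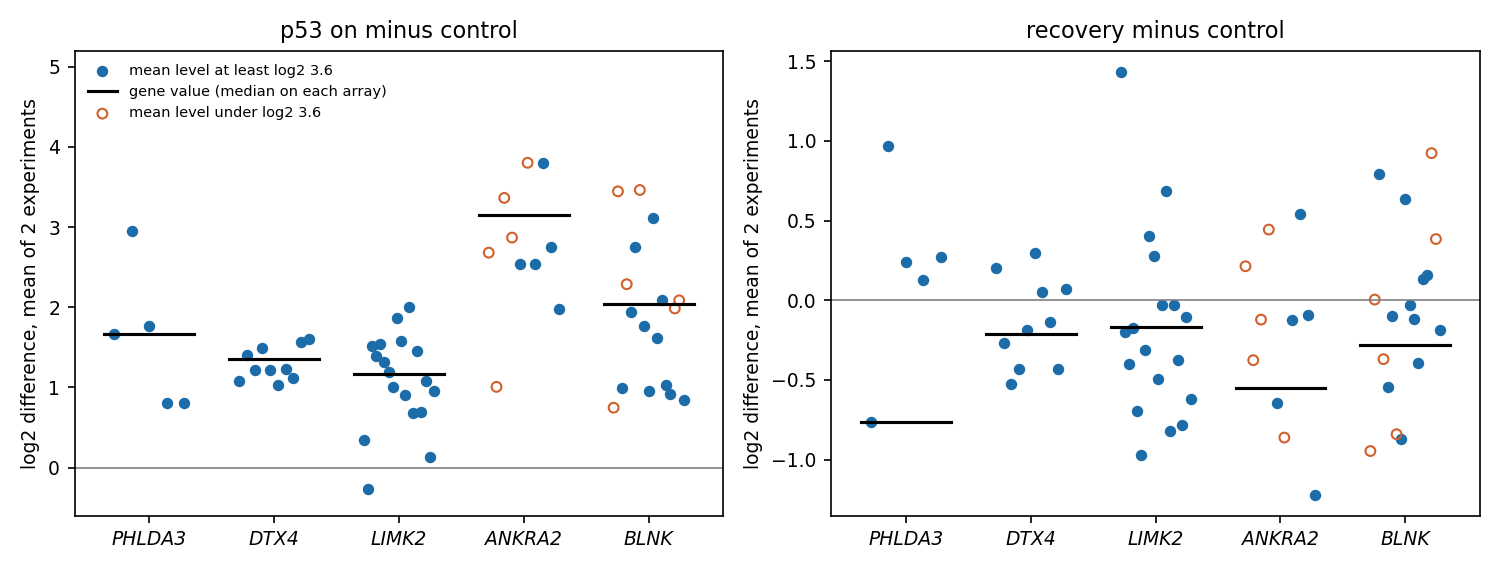
Log2 difference of each probe set of the 5 genes, as the mean of the 2 experiments, for p53 on minus control (left) and recovery minus control (right); filled points have a mean level of at least log2 3.6, open points lie under it, and the bar is the gene value. On the left 59 of 60 points lie above 0. On the right 38 lie below 0 and 22 above, and for PHLDA3 only the probe set at the bar is below 0. Both differences were part of the choice of genes, so these counts are a description.

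The 5 genes were also placed among all genes higher in p53 on. Of 126 such genes, 21 had a mean at or under control after recovery (16.7%), and 12 were at or under it in both experiments (9.52%), the 5 among them. Over all genes tested, 45.9% had a mean at or under control and 27.6% were at or under it in both experiments. The genes higher in p53 on lay at a median of 0.43 above control after recovery. They were called on a difference from the same control arrays, so this median and these shares are not independent of that choice. Ordered from the lowest, PHLDA3 was number 2, ANKRA2 number 3, BLNK number 5, DTX4 number 8 and LIMK2 number 10. The places of ANKRA2 and BLNK rest on dim levels, and with these raised to 3.6 their differences were 0 and -0.14. PTGS2, the cyclooxygenase gene, was lower still at -0.87, and ABCA1, a cholesterol exporter gene, BTG2, an antiproliferative gene, and POLH, a translesion polymerase gene, lay among them at -0.36, -0.27 and -0.22. Just inside the boundary at 0 were LDB1 and BLOC1S2 at -0.04 and PNRC1 at -0.03, and just outside it were TRIM3 at 0.001 and YPEL5 and NDST1 at 0.07 each. With the mean of the probe sets, 15 of the 21 genes were still at or under control, 4 of the 5 members among them.

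**Figure D3:**
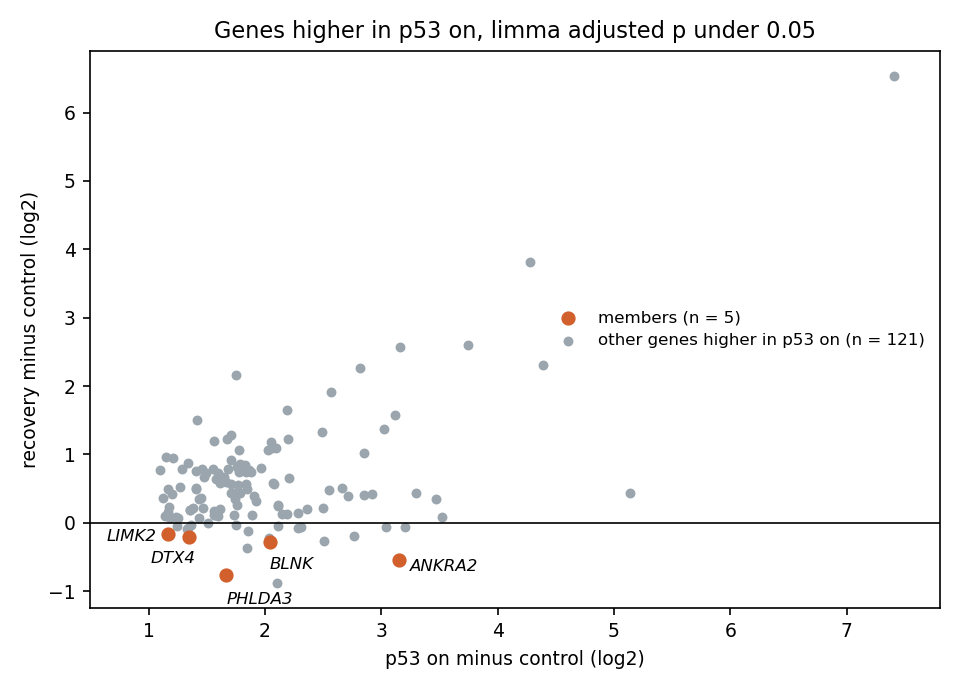
Recovery minus control against p53 on minus control, in log2 units as the mean of 2 experiments, for the 126 genes called higher in p53 on; the 5 named genes are orange and the other 121 grey. The 5 lie between -0.77 and -0.17 on the vertical axis, under the line at 0, while the median of all 126 is 0.43.

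Likeness to each gene was measured as the root mean square of the difference in 4 values, p53 on and recovery each relative to control in each experiment, against 12875 other genes. Nearest to LIMK2 were RIOK3 at 0.10 and TESK2 at 0.11 log2 units. Nearest to DTX4 were PNRC1 and RNF19B at 0.17 each, and nearest to BLNK were CASZ1 at 0.25 and PRKAB1 at 0.26. ANKRA2 had GDF15 and CDKN1A at 0.43 each, and PHLDA3 had FAM123B and TNFRSF10B at 0.43 each, so these 2 members were the farthest from their nearest genes. Among the members themselves DTX4 and LIMK2 were nearest, at 0.18, and ANKRA2 and LIMK2 farthest, at 1.43.

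The difference between the experiments was not used to choose the genes and could be tested. ANKRA2 was lower in experiment 2 than in experiment 1 in all 3 conditions, with differences of -0.95 in control, -0.85 in p53 on and -1.03 in recovery (mean -0.94 ± 0.14, limma adjusted p = 0.00424). Of the 6 arrays behind this test, 4 were dim, and only the p53 on pair was above log2 3.6. ANKRA2 passed the filter on dim signals through that pair. It was the only one of the 5 called, where 12.7% of all genes were, 9.94% lower and 2.72% higher in experiment 2. BLNK differed by -0.48 ± 0.16 (limma adjusted p = 0.087), also in the same direction in 3 of 3 conditions. PHLDA3 at 0.29 ± 0.15, DTX4 at 0.16 ± 0.14 and LIMK2 at -0.14 ± 0.14 had limma adjusted p of 0.262, 0.486 and 0.573. The rise of ANKRA2 in p53 on measured 3.20 in experiment 2 and 3.10 in experiment 1 against dim controls, and 2.13 and 2.97 with dim levels raised to 3.6.

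Of 8 paralogs of PHLDA3, DTX4, LIMK2 and ANKRA2, 0 were called by limma in any of the 3 comparisons, with or without the block. Over all genes, 1.48% were called without the block for p53 on against control and 11.5% with it. For recovery against p53 on the shares were 0.428% and 7.24%, and for recovery against control 0.0285% and 0.599%. A count of 0 among 8 genes therefore does not set the paralogs apart. At an unadjusted p under 0.05 there were 0 paralogs in each comparison without the block. With it there were 1 for p53 on against control, 1 for recovery against p53 on and 0 for recovery against control. PHLDA1 and PHLDA2, the other members of the PHLDA family, stood at -0.21 ± 0.28 and -0.14 ± 0.21 in p53 on relative to control (limma adjusted p = 0.799 and 0.826). LIMK1, the sister kinase of LIMK2, stood at -0.38 ± 0.20 (limma adjusted p = 0.449), with -0.50 and -0.27 in the experiments. RFXANK, the paralog of ANKRA2 and a subunit of the RFX complex, stood at -0.30 ± 0.25 (limma adjusted p = 0.668). Among the Deltex genes, DTX1, DTX2 and DTX3 lay between -0.03 and 0.18, and DTX3L, a partner of PARP9, at -0.66 ± 0.38 (limma adjusted p = 0.489, or 0.0588 with the replicate block). The difference between each gene and its paralogs was not tested.

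Pathway genes around the 5 members were looked up as 5 lists of 103 genes, of which 98 had a value and 91 were tested. The genes with a value that were not tested were dim. For p53 on against control, 1 of the 91 was called, RFNG, where 1.48% of all genes were (0.898% higher and 0.585% lower). In limma 12 of the 91 had an unadjusted p under 0.05. With the replicate block, 6 rose and 3 fell, where 11.5% of all genes were called (5.18% higher and 6.28% lower). The median of the 91 was 0.01, beside 0.02 over all genes.

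The 1 call without the block lay in the Notch list. RFNG, a Fringe glycosyltransferase that modifies Notch receptors, had 6.85 and 6.99 in p53 on, against 5.71 and 5.78 in control. It rose by 1.17 ± 0.20 (limma adjusted p = 0.0494), a call that was lost in each of the 6 fits without 1 array. NOTCH1, a receptor of the pathway, had 7.16 and 6.91 in p53 on, against 6.29 and 5.96 in control, and differed by 0.91 ± 0.22 (limma adjusted p = 0.106, or 0.0145 with the block). JAG2, a Notch ligand, differed by 0.82 ± 0.21 (limma adjusted p = 0.12, or 0.0198 with the block). With the block these 3 of 25 tested Notch genes rose and 0 fell, where 5.18% of all genes were called higher and 6.28% lower. After recovery NOTCH1 stood at 5.85 on both arrays, -1.19 ± 0.22 relative to p53 on (limma adjusted p = 0.0868, or 0.00794 with the block), and at -0.44 and -0.11 relative to control in the experiments. RFNG, at 5.84 and 6.11 after recovery, differed from p53 on by -0.945 ± 0.20 (limma adjusted p = 0.122, or 0.0155 with the block) and lay 0.13 and 0.33 above control.

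Among 20 tested genes of cofilin control, TESK2, another kinase that phosphorylates cofilin, was the one nearest in pattern to LIMK2. It had 4.49 and 4.44 in control, then 5.46 and 5.69 in p53 on, then 4.29 and 4.20 in recovery. TESK2 differed by 1.11 ± 0.20 in p53 on from control (limma adjusted p = 0.0508, or 0.00661 with the block) and by -1.33 ± 0.20 after recovery from p53 on (limma adjusted p = 0.0559, or 0.00575 with the block), and ended at -0.19 and -0.24 relative to control. Of the listed kinases upstream of the LIM kinases, ROCK1 and ROCK2 were called lower with the block, and PAK2, PAK4 and CDC42BPA, at -0.32, -0.10 and -0.14, were not called in either fit. ROCK1 differed by -0.78 ± 0.32 and ROCK2 by -0.74 ± 0.19 in p53 on from control (limma adjusted p = 0.31 and 0.13, or 0.0497 and 0.0289 with the block). Without the block no gene of this list was called, where 1.48% of all genes were, and 5 had an unadjusted p under 0.05 in limma.

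Of 12 tested binding partners and relatives of ANKRA2, 0 were called without the block (limma, 4 with an unadjusted p under 0.05), and 2 rose and 1 fell with it. Of all genes, 1.48% were called without the block, and 5.18% were called higher and 6.28% lower with it. HDAC4 and HDAC9, class IIa deacetylases, went opposite ways, at -0.70 ± 0.24 and 1.01 ± 0.26 (block adjusted p = 0.0496 and 0.0261 in limma), and RFX5, a subunit of the RFX complex, stood at 0.78 ± 0.22 (block adjusted p = 0.0371 in limma). Without the block the limma adjusted p of HDAC4, HDAC9 and RFX5 were 0.232, 0.129 and 0.153. HDAC4 stood 0.81 ± 0.24 higher after recovery than in p53 on (block adjusted p = 0.0415 in limma). HDAC9 was dim in control, at 3.08 and 3.51. None of 18 AKT pathway genes and none of 16 B cell receptor pathway genes was called in p53 on against control by limma with or without the block. Over all genes 11.5% were called with it and 1.48% without it. In these lists 0 genes had an unadjusted p under 0.05 in limma without the block, and their differences lay between -0.52 and 0.45.

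For recovery against p53 on, 0 of the 91 genes were called without the block (11 at an unadjusted p under 0.05 in limma), where 0.428% of all genes were, and with it 1 rose and 3 fell, where 7.24% were (3.84% higher and 3.39% lower). For recovery against control, 0 were called either way (4 at an unadjusted p under 0.05 in limma without the block), where 0.0285% and 0.599% of all genes were. All of these comparisons draw on the same 6 arrays, and those that share a group are not independent of each other.

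**Figure D4:**
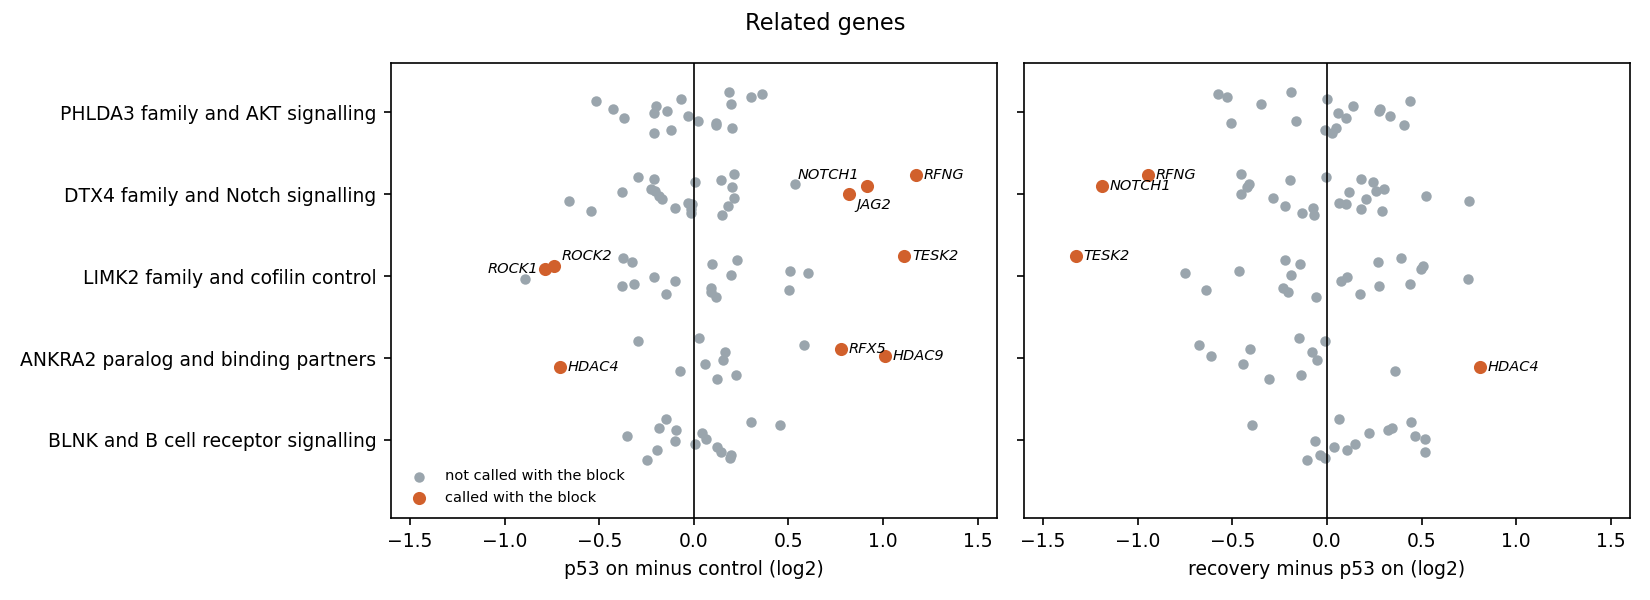
Log2 differences of the 91 tested pathway genes, a row for each of the 5 lists, for p53 on minus control (left) and recovery minus p53 on (right), each point a gene; orange points are called in limma with the replicate block. On the left 6 orange points lie right of 0 and 3 left of it; on the right 1 lies right and 3 lie left.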

How the data were processed

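RNA of 6 cultures was hybridised to Affymetrix Gene 1.0 ST arrays after whole transcript sense target labelling, per the labels' protocols. The authors deposited log2 signals per probe set, judged as log2 from their range of -0.85 to 13.14. Which program, background step and normalization were used is not given in the sources used here. Array medians lay between 5.24 and 5.31, so no scaling was added. The small number of arrays limits the precision.

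The gene values used the 224320 of 257430 probe sets that had a single symbol in the platform annotation. A gene's value was their median on each array. Genes in the lowest 25% by mean (under log2 3.62) were left out, leaving 14026. limma 3.58.1 (R 4.3.3) was fitted over all 6 arrays with the 3 groups as a factor, with Benjamini-Hochberg adjustment over all genes and calls at an adjusted p under 0.05. The fit was tested on simulated data. P-values measure only the spread between these arrays. The experiment number in the labels pairs the samples, and same-numbered arrays deviated together from their group means (r of 0.496, 0.551 and 0.63 across 14026 genes, which are not independent). It was added as a replicate block in an alternative fit, and the contrast of experiment 2 with experiment 1 came from that model.

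The members and lists were chosen with earlier results of these data known. Named genes were the members, their paralogs, listed genes called with or without the block, the 2 genes nearest to each member in pattern, and the 3 genes on each side of 0 for recovery against control. PTGS2, ABCA1, BTG2, POLH, PAK2, PAK4, CDC42BPA and the 2 LIMK2 probe sets were singled out after their values were seen. Promoters came from RefSeq (GRCh38.p14). Alternatives were the block, no dim filter, the mean of probe sets, quantile normalization, only the groups compared, dim probe sets left out, dim levels raised and each array left out.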

Additional observations from a re-analysis of the deposited data

Results flagged for a closer look

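For 3 paralogs of the genes described, the experiments went opposite ways, each by more than the standard error of the gene's mean difference. That error is for a mean over 2 experiments and is smaller than the error of a difference within 1 experiment. The difference between the experiments was not tested. PHLDA1 differed between recovery and p53 on by 0.43 in experiment 1 and -0.31 in experiment 2. DTX3 differed between recovery and control by -0.33 in experiment 1 and 0.40 in experiment 2. RFXANK differed between recovery and p53 on by -0.43 in experiment 1 and 0.42 in experiment 2. With 1 array for each condition in an experiment, such a pair of signs has no replicate check.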

How the results depend on the processing

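For the 5 genes, the median of p53 on minus control was 1.67, and 1.37 to 1.82 with 1 array left out. The median of recovery minus p53 on was -2.32, against -1.43 with the mean of probe sets and -2.39 to -1.93 with 1 array left out. The median of recovery minus control was -0.28, against -0.14 with the mean of probe sets, -0.41 with quantile normalization, -0.17 with dim levels raised, and -0.47 to -0.13 with 1 array left out. PHLDA3 reversed to 0.17 above control after recovery with the mean of probe sets, and to -0.056 for experiment 2 against experiment 1. On average 4 of its 5 probe sets lay above control after recovery. The widest of these gaps was that of the second by identifier, 2.22 in experiment 2, where its control array read 1.75. ANKRA2 reversed to 0.22 above control after recovery without its dim probe sets. The count of called pathway genes in p53 on was 1, but 9 with the replicate block, 4 with the mean of probe sets, and 0 each with no dim filter, quantile normalization, only the groups compared, and with any 1 array left out. For recovery against p53 on it was 0, but 4 with the replicate block and 2 with the mean of probe sets. For recovery against control it was 0 in every fit. Over all genes, 208 were called in p53 on, with 1607 in the block fit, 478 with the mean, 113 without the filter, 50 with only the groups compared and 3 to 50 with 1 array left out. Recovery against p53 on gave 60, with 1015, 182, 45, 0 and 0 to 4 in turn, and recovery against control gave 4, with 84 in the block fit and 1 to 3 with 1 array left out. Between the experiments, ANKRA2 was also the only member called with the mean of probe sets, no dim filter and quantile normalization (limma adjusted p = 0.00648, 0.0152 and 0.0193). With 1 array left out its difference was -0.99 to -0.90, and leaving out either array of a condition gave the same value. Other causes of these changes were not tested. Signals under log2 3.6 limit what can be said of ANKRA2 and BLNK outside p53 on.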
